A study of Mus musculus with 24 samples.

Results

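Knockout astrocytes of the hippocampus were compared with knockout astrocytes of the cortex by bulk RNA-seq. The 6 libraries used were the 3 labelled as hippocampus and the 3 labelled as cortex from Nfix knockout mice (KO), out of 24 libraries in all, which also cover the olfactory bulb and thalamus and control mice labelled WT. RNA came from sorted cells, which the series title names as astrocytes. Both groups compared carry the same labelled genotype, KO, and differ in brain region, and the same regions of WT mice are set beside them at the end. The kind of knockout allele, any Cre driver, the deleted part of the gene, the sorting marker, age, sex and batches are not given in the sources used here, and neither is it given whether a group's 3 libraries are 3 mice, or whether equal replicate numbers mark the same mouse. The p-values therefore reflect library-to-library spread alone, and that spread may be technical. Of 24394 genes in the deposited table, 8592 had a value of 10 or more in at least 3 of the 6 libraries and were compared, and 10682 were at 0 in all 6.

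Astrocytes are the glial cells that clear transmitters from synapses, buffer potassium, contact blood vessels and secrete factors that shape synapses. They differ between brain regions in the genes they use, and those of the hippocampus are known for abundant Gfap, the intermediate filament protein of astrocytes, which most cortical astrocytes hold at low levels. NFIX belongs to the nuclear factor I family, transcription factors that bind DNA as dimers and act in the formation and maturation of astrocytes.

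The 6 libraries held 11361818, 13355564 and 14445984 reads in hippocampus KO and 14821226, 12240015 and 12899957 reads in cortex KO, with 8601, 11356 and 9297 genes detected in hippocampus KO and 8580, 10195 and 8244 in cortex KO. Values below are normalized reads, which are read counts divided by one size factor per library, and a count of 0 allows up to 3 reads, or 2.04 to 2.70 normalized reads. Libraries of one group were as unlike each other as libraries of different groups. Of the genes at 50 or more in either library of a pair, 17.9 to 22.5% were at 0 in the other within hippocampus KO, 21.0 to 22.7% within cortex KO and 16.2 to 24.5% between the regions. The first principal component (24.5% of the variance) set cortex KO replicate 3 apart from the other 5 libraries, the second (22.5%) set replicate 1 of both regions against replicate 2 of both regions, and neither separated the regions. The third (19.7%) was -78.2, -0.10 and -82.0 in hippocampus KO and 119.8, 43.1 and -2.54 in cortex KO. There the hippocampus KO values were the lower, except that its replicate 2 lay just above cortex KO replicate 3.

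The astrocyte label was checked against 9 astrocyte markers, all of which were detected. Their summed level was 86033, 47709 and 75684 CPM (recovered reads scaled to an equal total per library) in the hippocampus KO libraries, against 80705, 63907 and 76906 CPM in the cortex KO libraries, so the groups overlapped and hippocampus KO replicate 2 was the lowest. Slc1a2, the main glutamate transporter of astrocytes, gave most of that sum, with 72668, 39197 and 62318 CPM in hippocampus KO and 66994, 51401 and 59121 CPM in cortex KO. The 15 neuronal markers summed to 642, 709.8 and 720.2 CPM in hippocampus KO and 549.9, 732 and 1006 CPM in cortex KO. Map2, a microtubule protein abundant in neurons, gave most of that sum, with 591, 349 and 519.9 CPM in hippocampus KO and 492, 623 and 632 CPM in cortex KO, while Rbfox3 was at 0 in all 6 libraries. Of 10 blood cell markers 9 were at 0 in all 6.

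Transcripts of other cell types were present at unequal levels, and replicate 2 held the most of them in both regions for oligodendrocytes, microglia, endothelium and choroid plexus. The summed level of 15 oligodendrocyte markers was 1560.2, 7763 and 1655 CPM in hippocampus KO and 2840.1, 18370 and 5795 CPM in cortex KO. Choroid plexus and ependymal markers summed to 59.2, 56207 and 8728 CPM in hippocampus KO, against 19.2, 1558 and 98.5 CPM in cortex KO. The largest part of that came from Ttr, the transthyretin of choroid plexus epithelium, with 38.4, 54662 and 8409 CPM in hippocampus KO and 19.2, 1485 and 98.5 CPM in cortex KO. The 14 microglia and macrophage markers summed to 104, 2168 and 329 CPM in hippocampus KO and 84.1, 1823 and 875 CPM in cortex KO. For none of the 13 marker lists did the summed level separate the regions: in exact two-sided permutation tests over the 20 assignments of 6 libraries, whose smallest p is 0.1, the choroid plexus list gave p = 0.3, the oligodendrocyte list p = 0.5, and every adjusted p was 0.929 or above. In bulk RNA, fewer cells of a type and less RNA per cell cannot be told apart.

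**Figure D1:**
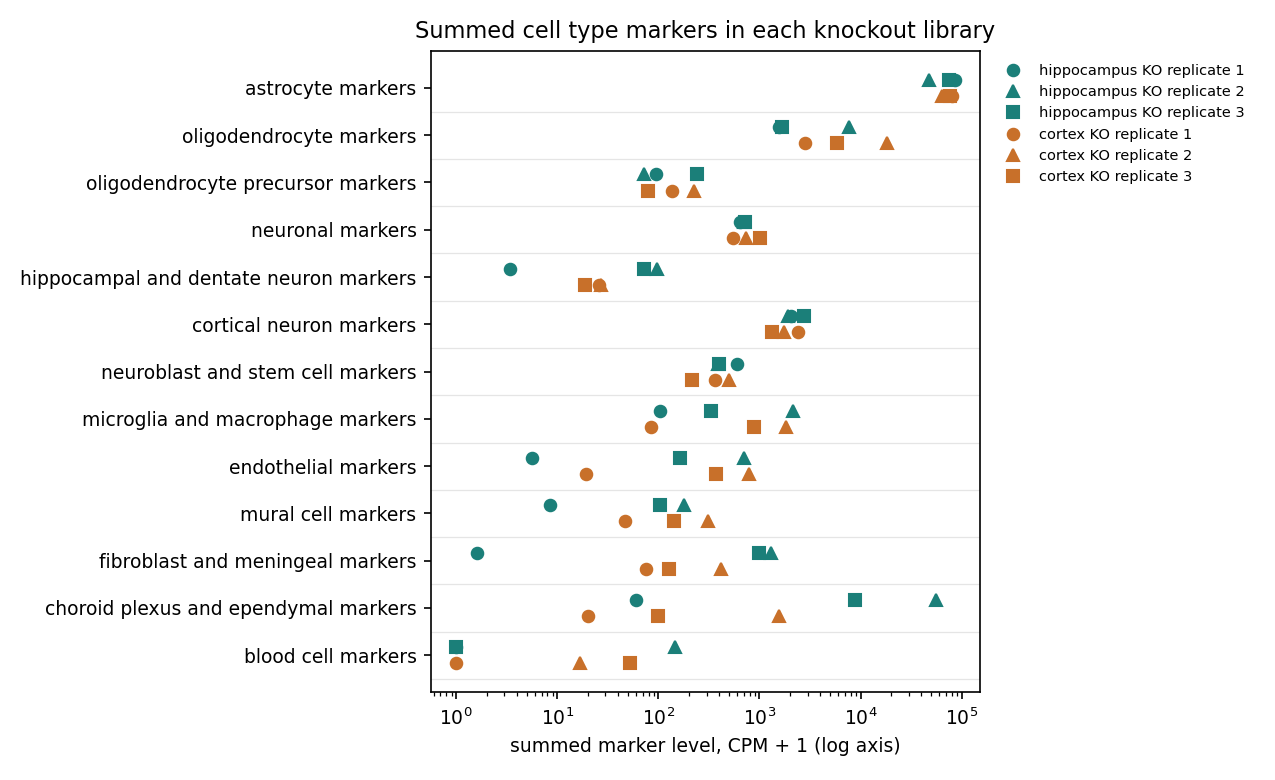
Summed level of 13 lists of cell type markers in each of the 6 knockout libraries, in CPM plus 1 on a log axis, with hippocampus KO drawn above cortex KO in each row and one symbol per replicate. Astrocyte markers sit between 47709 and 86033 CPM in all 6 libraries, while choroid plexus and ependymal markers run from 19.2 CPM in cortex KO replicate 1 to 56207 CPM in hippocampus KO replicate 2.

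No gene passed the test between the knockout regions. With limma on log2(value + 10) and Benjamini-Hochberg adjustment over all 8592 genes, 0 genes were higher and 0 lower in hippocampus KO at an adjusted p under 0.05 (0% called in each direction), and the smallest adjusted p was 0.452. At an unadjusted p under 0.05 there were 437 genes (5.09%). The 3 hippocampus KO values lay above all 3 cortex KO values for 511 genes (5.95%) and below them for 390 genes (4.54%). The median log2 difference over all genes was 0.10, with 4568 genes above 0 and 4024 below.

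Precision was limited by the spread between libraries. For log2 differences the median standard error was 1.58, and 207 genes (2.41%) had a standard error under 0.5. limma draws each gene's standard error strongly toward that of genes at a similar level. The standard errors, intervals and p-values of single genes therefore do not measure a gene's own spread. For 78 genes (0.908%) the 95% interval of the difference lay within 1 log2 unit of 0, so for the other genes a 2-fold difference in one direction or the other was not excluded at this depth and spread. Simulated counts took the dispersion trend of these libraries by level, and not each gene's own spread or its values at 0. On them the same test called 0% of genes changed 2-fold, 1.72% of those changed 4-fold and 2.82% of those changed 8-fold (7790 genes), against 64.2%, 100% and 100% at a low dispersion of 0.05 (8577 genes). edgeR and limma-voom on reads recovered from the values also called 0 genes, with 292 and 440 genes at an unadjusted p under 0.05. DESeq2 on the same reads called 33 higher (0.384%) and 30 lower (0.349%). With replicate number as a block, limma called 4 genes, Enpp2, Rn45s and Ttr higher and Mbp lower.

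**Figure D2:**
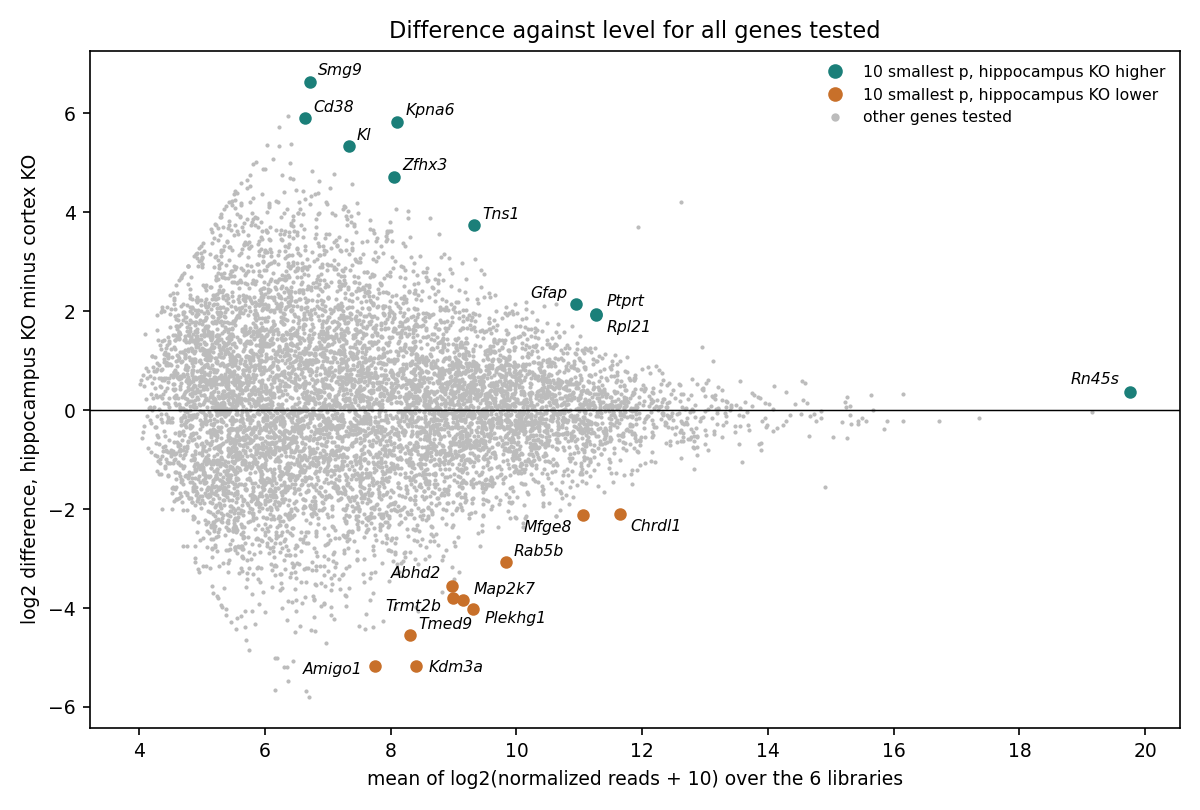
Log2 difference of hippocampus KO minus cortex KO (vertical axis) against the mean log2 level over the 6 libraries (horizontal axis) for the 8592 genes tested. Coloured points are the 10 genes with the smallest p in each direction, none of which passed the adjusted threshold; the scatter narrows as the level goes up.

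Nfix itself, the targeted gene, was read in every knockout library. It had 7904, 5409.6 and 6877 normalized reads in hippocampus KO, against 5713, 4229.8 and 5136 in cortex KO, with means of 6730.1 ± 1253 in hippocampus KO and 5026 ± 748 in cortex KO (SD, n = 3 each). The ranges overlapped, and the log2 difference was 0.41 (SE 0.47, adjusted p = 0.983), with a 95% interval of -0.51 to 1.34 and an exact permutation p of 0.2 over 20 assignments. In the same regions of WT mice Nfix had 5117, 4519 and 3900.5 in hippocampus WT and 3320.1, 3635 and 4402 in cortex WT, so the knockout libraries did not hold fewer reads of the gene than WT libraries. Reads over the whole gene do not check the genotype labels, since the deleted part is not given in the sources used here, and the groups are called KO as labelled. Of the other family members, Nfia had 9659.7, 8730.1 and 15050.1 in hippocampus KO and 15655, 7879.8 and 20014 in cortex KO, a log2 difference of -0.32. Nfib differed by 0.02 and Nfic by 0.58 on the log2 scale, and none of the 4 passed the test. Lyl1 and G430095P16Rik overlap Nfix on the opposite strand, so part of its reads could be theirs.

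Gfap and Sparc, both genes of astrocytes, had higher values in hippocampus KO without overlap between the regions, though neither passed the test. Gfap had 4756, 4425 and 3365 normalized reads in hippocampus KO, against 162, 3271 and 1449 in cortex KO. All 3 hippocampus values were above all 3 cortex values, although cortex KO replicate 2 came close to hippocampus KO replicate 3 and cortex KO replicate 1 was far below both of its partners. The log2 difference was 2.15 (SE 0.68, adjusted p = 0.927), with a 95% interval of 0.82 to 3.47, and leaving out each library in turn gave 0.92 to 3.05. Gfap lies at chr11:102887336-102900912 on the minus strand of GRCm38, where Gm26668 overlaps it on the opposite strand, so their reads cannot be told apart without strand. Sparc, a matricellular glycoprotein that astrocytes release and that counters its relative Sparcl1 at synapses, had 12162, 11709 and 13279 in hippocampus KO and 6745, 4195 and 4718 in cortex KO. Here each group was compact, with means of 12384 ± 808 in hippocampus KO and 5219 ± 1347 in cortex KO (SD, n = 3 each), and the log2 difference was 1.27 (SE 0.43, adjusted p = 0.936).

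Tns1 and Ptprt also had all hippocampus KO values above all cortex KO values. Tns1, which encodes tensin at focal adhesions, had 2607, 1808 and 2749 normalized reads in hippocampus KO and 1.36, 727 and 644 in cortex KO, where replicate 1 was under the floor of 3 reads. Its log2 difference was 3.74 (SE 1.05, adjusted p = 0.657). Ptprt, a receptor-type tyrosine phosphatase gene, had 6215, 2779 and 6511 in hippocampus KO and 1947, 1269 and 788 in cortex KO. The log2 difference was 1.94 (SE 0.62, adjusted p = 0.927), and leaving out each library in turn gave 1.61 to 2.34.

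The other genes with the 10 smallest p in this direction followed no common pattern over the libraries. Kpna6, an importin alpha that carries proteins into the nucleus, had 4367, 956 and 2084 in hippocampus KO and 356, 3.09 and 0 in cortex KO, a log2 difference of 5.83 (SE 1.48, adjusted p = 0.452), the smallest p of the table. Zfhx3, a homeobox and zinc finger transcription factor, had 1069.9, 1957 and 1184 in hippocampus KO, against 0, 1376 and 0 in cortex KO, so that cortex KO replicate 2 lay inside the hippocampus range and the other 2 cortex libraries were at 0. Kl, which encodes klotho and is abundant in choroid plexus, had 201, 8031 and 625 in hippocampus KO and 0, 153 and 0 in cortex KO. These values were ordered as the choroid plexus sum was, with replicate 2 the highest in both regions, and the part of choroid plexus transcripts in the Kl difference was not tested. Rpl21 had 5704, 2846 and 6872 in hippocampus KO and 1697, 1159 and 1016 in cortex KO, but ribosomal protein genes have many near-identical copies in the genome, so its reads are uncertain. Rn45s, the precursor of ribosomal RNA, took 7.16 to 10.7% of the reads and had all hippocampus KO values above all cortex KO values, with a log2 difference of 0.37 (SE 0.12, adjusted p = 0.927). With replicate number as a block Rn45s was called. The other 2 genes, Smg9 and Cd38, are given with the fully separated genes.

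**Figure D3:**
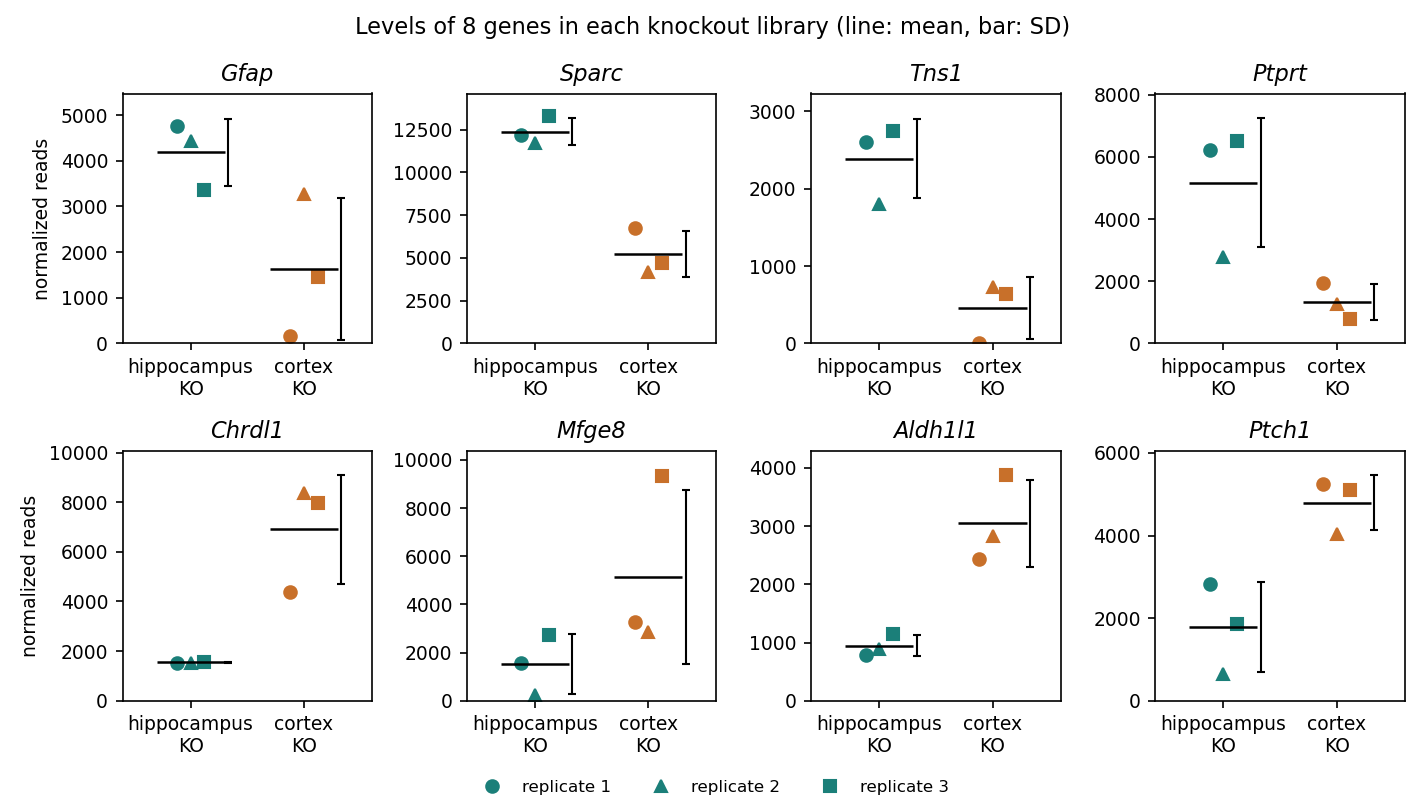
Normalized reads of 8 genes in each knockout library, hippocampus KO left of cortex KO, one symbol per replicate, with the mean (line) and SD (bar, n = 3). The 8 were chosen from genes named for their differences in these same libraries. That the regions do not overlap in any of them therefore adds no support, and 10.5% of all genes tested did not overlap. Sparc lies at 11709 to 13279 in hippocampus KO and 4195 to 6745 in cortex KO, while Gfap spreads from 162 to 3271 within cortex KO.

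Among genes with lower values in hippocampus KO, Chrdl1 was the most even. Chrdl1 encodes chordin-like 1, a secreted antagonist of bone morphogenetic proteins that astrocytes release and that acts on the maturation of glutamate receptors at synapses. It had 1536, 1521 and 1576 normalized reads in hippocampus KO, against 4389, 8373 and 7959 in cortex KO. The 3 hippocampus libraries were nearly equal and the lowest cortex library was far above them, with means of 1544 ± 28.3 in hippocampus KO and 6907 ± 2190.2 in cortex KO (SD, n = 3 each). The log2 difference was -2.10 (SE 0.57, adjusted p = 0.476), with a 95% interval of -3.21 to -0.98 and -2.39 to -1.93 when each library was left out. Chrdl1 lies at chrX:143285674-143394262 on the minus strand of GRCm38, and no other annotated gene overlaps its exons.

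Mfge8 encodes a secreted protein that bridges phosphatidylserine on dying cells or synapses to integrins on phagocytes. It had 1573, 235 and 2748 normalized reads in hippocampus KO and 3284, 2845 and 9315 in cortex KO, with hippocampus KO replicate 3 just under the lowest cortex library. The log2 difference was -2.12 (SE 0.66, adjusted p = 0.927). Plekhg1, which encodes a guanine nucleotide exchange factor, had 82, 79.6 and 459.9 in hippocampus KO, against 1320.5, 2212 and 5534 in cortex KO, a log2 difference of -4.02 (SE 1.06, adjusted p = 0.452). Its groups did not overlap, and replicate 3 was the highest library of each region.

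The other 7 genes with the smallest p in this direction also had all hippocampus KO values below all cortex KO values. Kdm3a, a histone lysine demethylase, had 45, 219 and 4.26 in hippocampus KO and 3966, 2236 and 919 in cortex KO, a log2 difference of -5.16 (SE 1.37, adjusted p = 0.452). Map2k7, a kinase that activates the JNK pathway, had 18, 348 and 324 in hippocampus KO and 3329.9, 973 and 3001 in cortex KO. The endosomal GTPase Rab5b differed by -3.07 on the log2 scale, the RNA methyltransferase Trmt2b by -3.80, the cargo receptor Tmed9 of the early secretory pathway by -4.55, the adhesion protein Amigo1 by -5.17 and the lipid hydrolase Abhd2 by -3.56, with adjusted p of 0.878 to 0.927. Amigo1 had 0, 429 and 0.711 in hippocampus KO, against 2142, 1475 and 677 in cortex KO, so 2 of its hippocampus libraries were under the floor.

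A stricter description took genes whose lowest library in one region held at least 100 normalized reads and more than 4 times the highest library of the other. This held for 40 genes with hippocampus KO higher (0.466%) and 26 with hippocampus KO lower (0.303%), and none of the 10 largest differences in each direction passed the limma test, with adjusted p of 0.452 to 0.953. DESeq2 called 9 of the 10 higher (all but Eya4) and all 9 of the lower genes named here, and among the other genes named here Chrdl1, Plekhg1, Trmt2b, Tmed9, Hes1, Stim2 and Ndufa8. Of all 8592 genes it called 0.384% higher and 0.349% lower. All these genes were picked for their differences in these same libraries, so the calls add no support. The higher genes included Smg9, of the kinase complex of nonsense-mediated mRNA decay, with 1732, 224 and 2799 normalized reads in hippocampus KO and 0.681, 0.773 and 0 in cortex KO. Cd38, an enzyme that consumes NAD on the cell surface, had 1792, 526 and 464 in hippocampus KO, against 0, 0 and 11.7 in cortex KO. Both were at or under the floor of 3 reads in at least 2 of the cortex libraries. Slit2, a secreted axon guidance ligand, had 256, 985 and 267 in hippocampus KO and 0, 0.773 and 0 in cortex KO. Sav1, a scaffold of the Hippo pathway, had 696, 173 and 1307 in hippocampus KO and 0, 11.6 and 0.837 in cortex KO. Eya4, a transcriptional coactivator, had 572, 331 and 932 in hippocampus KO and 70.9, 0 and 0 in cortex KO. Exons of Sav1 overlap the span of Atl1, and exons of Timm10b the span of Arfip2, on the opposite strand. The remaining 5 were Timm10b, Vat1l, Slc25a32, Rtca and Tmem11, of which Timm10b, Slc25a32 and Tmem11 encode proteins of the mitochondrial inner membrane. Timm10b had 2262, 453 and 246 in hippocampus KO, against 0, 1.55 and 0 in cortex KO, and Tmem11 had 346, 146 and 679 in hippocampus KO, against 0, 5.41 and 0 in cortex KO.

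The fully separated genes with lower values in hippocampus KO were led by Slc25a1, the mitochondrial citrate carrier that exports citrate for fatty acid and sterol synthesis. It had 4.5, 2.3 and 4.98 normalized reads in hippocampus KO, against 1259, 583 and 604 in cortex KO, a log2 difference of -5.80 (SE 1.92, adjusted p = 0.927). Slc19a3, a thiamine transporter, was at 0 in all 3 hippocampus KO libraries and had 166, 499 and 1459 in cortex KO. Lgr6, a receptor of R-spondins in Wnt signalling, had 0, 0 and 9.24 in hippocampus KO and 1100.4, 356 and 404 in cortex KO. Kif16b, a kinesin of early endosomes, had 0, 12.3 and 4.98 in hippocampus KO and 724, 468 and 358 in cortex KO. The others given here were Kdm3a, described above, and Mllt3, Ppm1l, Taf6 and D630003M21Rik, of which D630003M21Rik was at 0 in all 3 hippocampus KO libraries. Mllt3, of the super elongation complex, had 0.901, 15.3 and 0 in hippocampus KO, against 345, 1462 and 695 in cortex KO. Ppm1l differed by -5.20 on the log2 scale and Taf6, which Ap4m1 overlaps on the opposite strand, by -5.19. Values at 0 beside high values also occurred within groups, as the pair counts above show.

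The promoters of 3 of these genes are shown because they stand for a gene higher in hippocampus KO, a gene lower in hippocampus KO and the fully separated lower gene with the largest fitted difference, and because NFI factors bind the half-site TTGGC. Each sequence runs from 250 bases before to 50 bases after the RefSeq start site (GRCm38.p6), 5′ to 3′ on the gene's strand, which is the minus strand in all 3, and capitals mark TTGGC or its complement GCCAA.
Gfap promoter, chr11:102897151-102897450: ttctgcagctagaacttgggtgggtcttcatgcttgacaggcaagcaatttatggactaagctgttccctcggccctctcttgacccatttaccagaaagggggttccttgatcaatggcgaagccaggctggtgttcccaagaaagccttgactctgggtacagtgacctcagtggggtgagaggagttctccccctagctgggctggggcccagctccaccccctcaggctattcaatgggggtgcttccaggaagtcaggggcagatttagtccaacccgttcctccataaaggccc
Mfge8 promoter, chr7:79149011-79149310: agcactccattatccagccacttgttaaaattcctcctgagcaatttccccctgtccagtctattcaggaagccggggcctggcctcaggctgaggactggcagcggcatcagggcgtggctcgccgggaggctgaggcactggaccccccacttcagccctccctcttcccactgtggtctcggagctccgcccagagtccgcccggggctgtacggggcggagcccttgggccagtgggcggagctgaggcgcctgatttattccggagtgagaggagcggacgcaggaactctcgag
Slc25a1 promoter, chr16:17928170-17928469: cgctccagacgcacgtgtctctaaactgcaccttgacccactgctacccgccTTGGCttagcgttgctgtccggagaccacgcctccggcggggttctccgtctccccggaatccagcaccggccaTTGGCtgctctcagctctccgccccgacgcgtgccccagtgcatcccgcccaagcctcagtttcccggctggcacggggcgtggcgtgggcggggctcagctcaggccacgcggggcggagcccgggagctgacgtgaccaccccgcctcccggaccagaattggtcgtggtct
Neither strand of the Gfap and Mfge8 windows held the half-site, and the Slc25a1 window held 2. Of 32851 RefSeq promoters of this length, 46.71% held at least 1 half-site on either strand, and the full palindrome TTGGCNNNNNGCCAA was in 12 of them (0.0365%). Of the 20 genes with the smallest p, 16 had a promoter in the table and 7 of those held a half-site. Of the 20 fully separated genes, 17 had one and 10 held a half-site, against 50.4% of 27025 genes by gene. A match is a description of these letters and not evidence of binding.

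The astrocyte identity list was measured in full, with members on both sides of 0. All 28 genes were tested, 0 passed, 9 had a difference above 0 and 19 below, and the median log2 difference was -0.22 against 0.10 over all genes tested. Aldh1l1, a folate enzyme widely used as an astrocyte marker, had 793, 894 and 1145 normalized reads in hippocampus KO and 2443, 2828 and 3886 in cortex KO, without overlap and with a log2 difference of -1.67 (SE 0.72, adjusted p = 0.953). Gm45901 and Gm15756 overlap its exons. The connexin gene Gjb6 had 3163, 1113 and 5645 in hippocampus KO and 3797, 6572 and 8140.5 in cortex KO, which overlapped. Clu, which encodes the secreted chaperone clusterin, had 31583, 28831 and 27422 in hippocampus KO and 19188, 13126 and 29592 in cortex KO, also with overlap. For the most abundant members the intervals were narrow, but they rest mostly on the pooled spread of genes at a similar level. The hippocampus KO libraries of Slc1a2 alone ran from 400890 to 743561 normalized reads. Slc1a2 differed by -0.05 on the log2 scale (95% interval -0.30 to 0.21), the water channel Aqp4 by -0.03 (-0.59 to 0.54), the glutamate transporter Slc1a3 by -0.39 (-0.86 to 0.08) and the connexin Gja1 by 0.26 (-0.44 to 0.95).

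Genes of reactive astrocytes lay mostly above 0, but 18 of the 30 listed did not reach 10 in 3 libraries and were not tested. Of the 12 tested, 10 had a difference above 0 and 2 below, 0 passed, and the median log2 difference was 0.96. Gfap, given above, is one of them. C4b, a complement component, had 653, 2457 and 301 normalized reads in hippocampus KO and 89.9, 503 and 14.2 in cortex KO, with hippocampus KO replicate 2 and cortex KO replicate 2 the highest of their groups, the regions overlapped, and its log2 difference was 2.89 (SE 1.44, adjusted p = 0.953). The small heat shock protein gene Hspb1 lay the other way, by -1.995 on the log2 scale, with 0, 427 and 1.42 in hippocampus KO and 0, 346 and 880.1 in cortex KO. Replicate 2 also held the most microglial and endothelial transcripts in both regions, and their part in the values of this list was not tested.

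**Figure D4:**
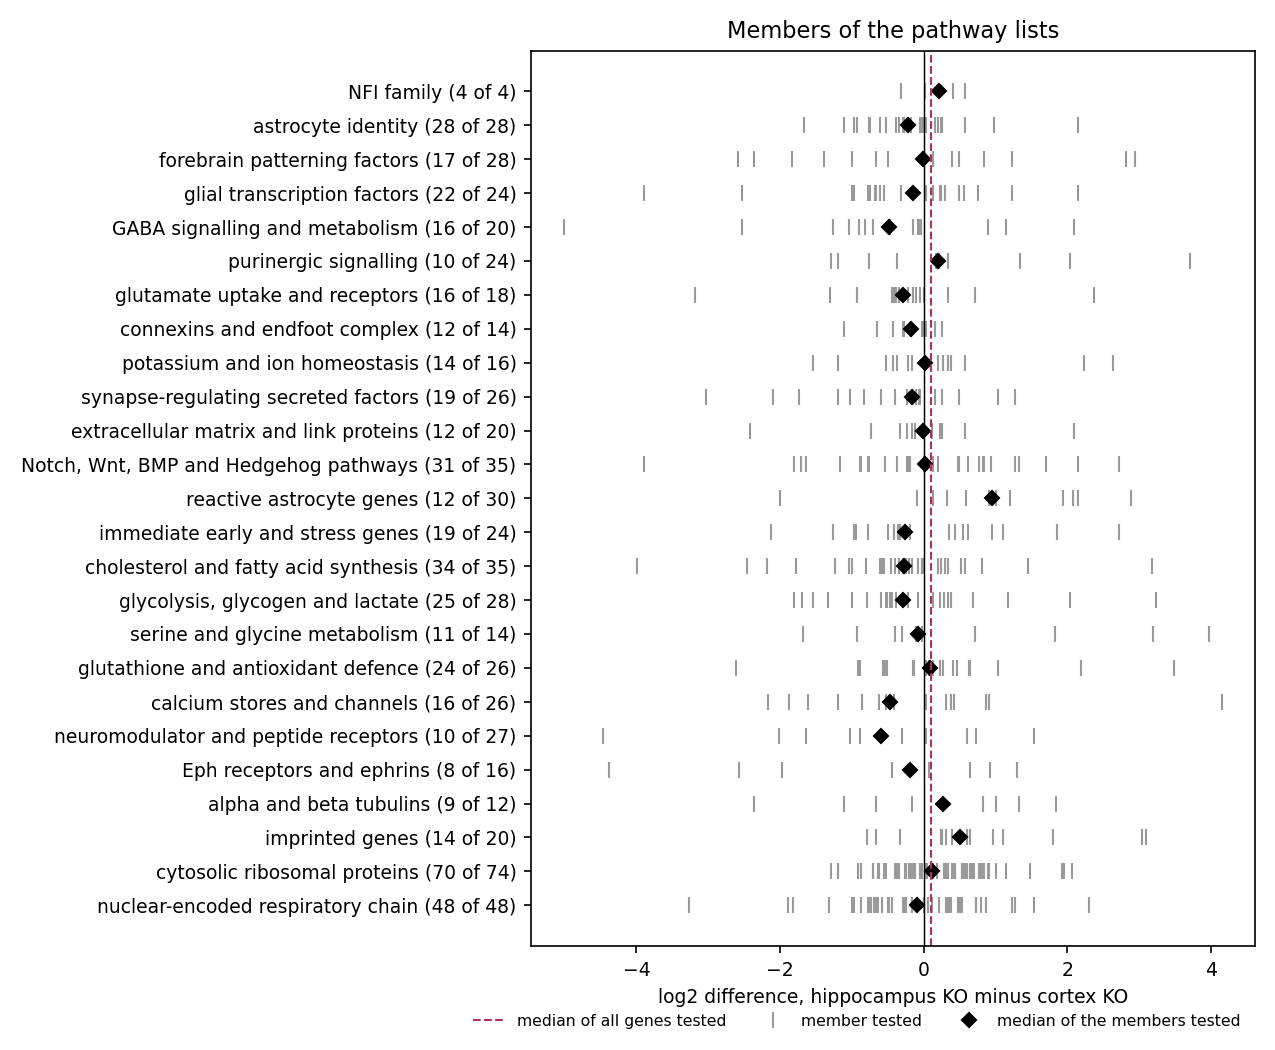
Log2 difference of hippocampus KO minus cortex KO for the tested members of 25 gene lists (grey ticks), the median of each list (diamond) and the median of all genes tested (dashed line, 0.10). No member passed the test; the medians run from -0.60 for neuromodulator and peptide receptors to 0.96 for reactive astrocyte genes.

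The series title names GABA and purinergic signalling. Of 20 listed GABA genes 16 were tested, with 3 above 0, 13 below and 0 passing, and a median log2 difference of -0.48. The metabotropic receptor subunit Gabbr1 had 7257, 3622 and 6165 normalized reads in hippocampus KO and 11957, 4733 and 18936 in cortex KO, which overlapped, and Slc6a11, the GABA transporter GAT-3 of astrocytes, differed by -0.49 (SE 0.41). Aldh1a1, which can make GABA from an aldehyde, had 4042, 6972 and 9747 in hippocampus KO and 3551, 4309 and 2817 in cortex KO, a log2 difference of 0.89. Of 24 purinergic genes only 10 were tested, with 6 above 0 and 4 below and a median of 0.20, and the largest difference was in Enpp2. Enpp2 encodes autotaxin and is also abundant in choroid plexus. It had 892, 143475 and 21514 in hippocampus KO and 290.3, 7453 and 552 in cortex KO, in the same order over the libraries as the choroid plexus sum within each region. Enpp2 did not pass the main test but was called with replicate number as a block. The microglial receptor P2ry12 had 133, 2567 and 268 in hippocampus KO and 91.3, 1874 and 2649 in cortex KO, and the channel P2rx4 had 0, 1243 and 0 in hippocampus KO and 0, 289 and 599 in cortex KO. Both overlapped between the regions.

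For glutamate uptake and receptors, 16 of 18 genes were tested, with 4 above 0 and 12 below, a median of -0.28 and 0 passing. The AMPA receptor subunit Gria2 had 1871, 515 and 1554 normalized reads in hippocampus KO and 3753, 3094 and 1979 in cortex KO, without overlap, and a log2 difference of -1.30 (SE 0.70, adjusted p = 0.973). In the potassium and ion list, 14 of 16 were tested, with 7 on each side of 0 and a median of 0.02. The 2 two-pore channel genes of that list lay on opposite sides. Kcnk2 had 1204, 632 and 1126 in hippocampus KO and 30, 155 and 543 in cortex KO, a difference of 2.64, and Kcnk1 had 1130.2, 814 and 522 in hippocampus KO and 3970.4, 1692 and 1792 in cortex KO, a difference of -1.54. Both were without overlap between the regions. The inward rectifier Kcnj10, the main potassium channel of astrocytes, differed by -0.43 (95% interval -1.09 to 0.23), and the sodium pump subunit Atp1b2 by -0.53 (-1.12 to 0.06). The 12 tested genes of connexins and the endfoot complex had a median of -0.18, with 4 above 0 and 8 below.

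Of 26 synapse-regulating secreted factors, 19 were tested, 5 above 0 and 14 below, with a median of -0.17 and 0 passing. Sparc and Chrdl1, given above, had the 2 smallest p of that list and lay on opposite sides of 0. Lgi3 had 8.11, 7.66 and 0.711 normalized reads in hippocampus KO and 148, 179 and 53.6 in cortex KO, close to the floor in hippocampus KO. The phagocytic receptor Mertk differed by 0.49 on the log2 scale (SE 0.56). Among 12 tested genes of the extracellular matrix, 6 were above and 6 below 0, with a median of -0.01.

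Of 28 forebrain patterning factors, which set regional identity in development, 17 were tested and 11 did not reach 10 in 3 libraries, with 7 above 0, 10 below, 0 passing and a median of -0.01. Emx2, a homeobox factor of the developing cortex and hippocampus, had 357, 658 and 246 normalized reads in hippocampus KO and 2424, 373 and 3049.8 in cortex KO, which overlapped. Pax6, a paired box factor of radial glia, had 145, 89.6 and 3.55 in hippocampus KO and 447, 356 and 262 in cortex KO, and Hopx, a homeodomain cofactor gene, had 4732, 2534 and 3141 in hippocampus KO and 978, 1247 and 2375 in cortex KO. Both were without overlap, with log2 differences of -2.59 for Pax6 and 1.23 for Hopx. Of the 22 tested glial transcription factors, 11 lay on each side of 0. Hes1, an effector of Notch signalling, had 17.1, 17.6 and 32.7 in hippocampus KO and 196, 901 and 557 in cortex KO, a log2 difference of -3.90 (SE 1.87, adjusted p = 0.953), while its relative Hes5 differed by 2.15, with 54, 49 and 32.7 in hippocampus KO and 0, 6.96 and 0.837 in cortex KO. The groups did not overlap in either gene, and the signs were opposite. Otx1, a patterning factor of deep cortical layers, had 456, 154 and 584 in hippocampus KO and 0, 0 and 997 in cortex KO, so cortex KO replicate 3 was above all hippocampus values. Sox8 had 358, 801 and 6.4 in hippocampus KO and 667, 464 and 2971 in cortex KO, with overlap.

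The Notch, Wnt, BMP and Hedgehog list had 31 of 35 genes tested, 17 above 0 and 14 below, with a median of 0.02. Ptch1, the Hedgehog receptor and a target of that pathway, had 2838, 653 and 1863 normalized reads in hippocampus KO, against 5238, 4026 and 5104 in cortex KO. All hippocampus values were below all cortex values, the log2 difference was -1.65 (SE 0.60, adjusted p = 0.953), and each library left out in turn gave -2.10 to -1.05. The Wnt receptor Fzd3 had 1754, 1809 and 1871 in hippocampus KO and 1264, 946 and 343 in cortex KO, a log2 difference of 1.27 (SE 0.83) without overlap.

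Cholesterol and fatty acid synthesis had 34 of 35 genes tested, with 9 above 0, 25 below, 0 passing and a median of -0.27. In 5 of them all hippocampus KO values were below all cortex KO values, and in 0 were they above, against 4.54% and 5.95% of all genes tested. Mvd, the decarboxylase of the mevalonate pathway, is not one of these 5. It had 45.9, 3.06 and 0 normalized reads in hippocampus KO and 486, 34 and 1333 in cortex KO, which overlapped. The fatty acid elongase Elovl6 lay the other way, with 1042, 1127 and 282 in hippocampus KO and 8.86, 519 and 37.7 in cortex KO, which overlapped. Slc25a1, which supplies cytosolic citrate, is described above and is not in this list.

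In glycolysis, glycogen and lactate, 25 of 28 genes were tested, with 10 above 0, 15 below and a median of -0.28. The pyruvate dehydrogenase kinase Pdk2 differed by -1.33 on the log2 scale and the glycolytic enzyme Pgam1 by 1.18. Serine and glycine metabolism had 11 of 14 tested, 4 above 0 and 7 below, and its largest difference was in the glycine transporter Slc6a9, with 289, 1162 and 151 normalized reads in hippocampus KO and 138, 0 and 0 in cortex KO. In glutathione and antioxidant defence 24 of 26 were tested, 15 above 0 and 9 below, and Keap1, the inhibitor of the antioxidant factor NRF2, had 396, 741 and 158 in hippocampus KO and 1.36, 10.8 and 145 in cortex KO. Calcium stores and channels had 16 of 26 tested, 7 above 0 and 9 below. In that list Stim2, a calcium sensor of the endoplasmic reticulum, had 354, 714 and 14.9 in hippocampus KO and 0, 0.773 and 0.837 in cortex KO, without overlap and with all cortex libraries under the floor.

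Of 27 neuromodulator and peptide receptors 10 were tested, with 4 above 0 and 6 below. The endothelin receptor Ednra had 81.1, 4.59 and 0 normalized reads in hippocampus KO and 2.04, 2615 and 4569 in cortex KO, so cortex KO replicate 1 lay inside the hippocampus range. Ednrb, the endothelin receptor abundant in astrocytes, had 10739, 9268 and 11313 in hippocampus KO and 6875, 4284 and 10756 in cortex KO, with overlap. Among Eph receptors and ephrins 8 of 16 were tested, 4 on each side, and Ephb1 had 7.2, 564 and 0 in hippocampus KO and 2226, 879.7 and 440.5 in cortex KO. Of 9 tested tubulin genes, 5 lay above 0 and 4 below. Tubb4a, a beta-tubulin of neurons and oligodendrocytes, had 380.1, 960.3 and 292 in hippocampus KO and 1434, 5305 and 2037 in cortex KO, a log2 difference of -2.37 (SE 0.85, adjusted p = 0.953), and Tubb4b had 1964, 2837 and 1562 in hippocampus KO and 722, 1042 and 240.3 in cortex KO, a difference of 1.84 (SE 0.85, adjusted p = 0.953). Neither overlapped between regions, and tubulin genes are similar enough in sequence that the counting may have split reads between them.

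Of 20 imprinted genes 14 were tested, 11 above 0 and 3 below, with a median of 0.50 and 0 passing. Nnat, which encodes neuronatin, had 2351, 299 and 3010 normalized reads in hippocampus KO and 444, 546 and 4.19 in cortex KO, where hippocampus KO replicate 2 lay inside the cortex range, and the log2 difference was 3.09 (SE 1.22, adjusted p = 0.953). Exons of Nnat overlap the span of Blcap on the opposite strand. Zdbf2, a paternally expressed gene, had 39.6, 299 and 75.3 in hippocampus KO and 0, 0 and 13.4 in cortex KO, without overlap. Igf2, a growth factor of meninges and choroid plexus, had 6.3, 8754 and 9041 in hippocampus KO and 176, 1357 and 499.9 in cortex KO, a difference of 1.10. It became 4.14 (adjusted p = 0.00471) without hippocampus KO replicate 1, the lowest library for Igf2. Leaving out each library in turn gave -0.42 to 4.14, and no other of these fits called Igf2. In the main cellular machinery the lists were centred near all genes: of 70 tested ribosomal protein genes 38 were above 0 and 32 below, with a median of 0.12, and of 48 nuclear-encoded respiratory chain genes 23 were above and 25 below, with a median of -0.09. Ndufa8, a subunit of complex I, had 63.9, 74.3 and 107 in hippocampus KO and 351, 1048 and 1702 in cortex KO, a log2 difference of -3.27 (SE 1.47, adjusted p = 0.953), and Uqcrb, a subunit of complex III, had 364, 1527 and 124 in hippocampus KO and 107, 122 and 31.8 in cortex KO. Neither overlapped between the regions, and their signs were opposite. Rps16 had 2034, 2155 and 1432 in hippocampus KO and 770, 1391 and 90.4 in cortex KO, Rpl37 differed by -1.30 and Rpl24 by -1.19 on the log2 scale, with the same doubt about near-identical copies. Immediate early and stress genes had 19 tested, 8 above 0 and 11 below, with a median of -0.27.

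Oligodendrocyte genes lay mostly below 0 and the few choroid plexus genes tested above 0. Of 13 tested oligodendrocyte markers 2 were above 0 and 11 below, with a median log2 difference of -0.996 and 0 passing. Mbp, which encodes myelin basic protein, had 9620.1, 59571 and 9919 normalized reads in hippocampus KO and 21633, 128477 and 51842 in cortex KO. In each region replicate 2 was the highest, and the difference was -1.55 (SE 1.14). It became -2.42 (adjusted p = 8.5e-05) without hippocampus KO replicate 2, the hippocampus library with the most Mbp. Leaving out each library in turn gave -2.42 to -0.91, and no other of these fits called Mbp. With replicate number as a block Mbp was called. Mal, a lipid raft protein of myelin, had 277, 647 and 842 in hippocampus KO and 1625, 4447 and 1874 in cortex KO, without overlap. Ermn, a cytoskeletal protein of oligodendrocytes, had the other sign, with a difference of 1.82. Mog, on the outer surface of myelin, had 0, 577 and 3.55 in hippocampus KO and 919.9, 344 and 237 in cortex KO, which overlapped. The part of differing oligodendrocyte content in these values was not tested. Of 12 choroid plexus and ependymal genes listed, 3 were tested, Ttr, Kl and Clic6, and all 3 were above 0. The regions overlapped for Ttr and Clic6, with Clic6 at 0, 3888 and 1805 in hippocampus KO and 0, 496 and 0 in cortex KO. Of 7 tested neuronal markers 3 were above 0 and 4 below. The synaptic vesicle gene Syp had 67.5, 80.4 and 108 in hippocampus KO and 0, 3.09 and 0 in cortex KO. Syt1, another neuronal marker, lay the other way, with 0, 0 and 0.711 in hippocampus KO and 15, 10.8 and 124 in cortex KO. Neither overlapped between the regions. The mural cell marker Vtn had 0, 14.6 and 36.2 in hippocampus KO, against 375, 252 and 342 in cortex KO, without overlap, although the summed mural markers overlapped. Rorb, listed with cortical neurons but also used by glia, had 19447, 18255 and 25376 in hippocampus KO and 22440.4, 14405 and 10036 in cortex KO, and the endothelial gene Pecam1 had 0, 263 and 0 in hippocampus KO and 5.45, 788 and 3074 in cortex KO.

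The same regions of control mice gave values from libraries that the knockout comparison did not use, although cortex WT replicate 3 stood apart with 4803663 reads and 3871 genes detected. In all 6 WT libraries limma called 0 of 9024 genes in either direction (0% in each), with 399 at an unadjusted p under 0.05. Without cortex WT replicate 3 it called 13 higher (0.147%) and 1 lower (0.0113%) of 8870. Hippocampus WT replicates 2 and 3 were also unusually alike, since 0% of genes at 50 or more in either were at 0 in the other, against 16.9 and 17.3% for the pairs with replicate 1. With those 2 averaged as 1 library, and without cortex WT replicate 3, 7 genes were higher (0.0883%) and 2 lower (0.0252%) of 7930.

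Sparc and Gfap lay the same way in both genotypes. Sparc had 14763, 11183 and 15799.9 normalized reads in hippocampus WT, against 4881, 4501 and 10874 in cortex WT, and the log2 difference was 1.55 (SE 0.32, adjusted p = 0.00831) without cortex WT replicate 3 and 1.59 (SE 0.37, adjusted p = 0.0244) with the like pair averaged as well. Gfap had 5904, 5582 and 2915 in hippocampus WT, against 1127, 721 and 0 in cortex WT. Its difference was 2.33 (SE 0.55, adjusted p = 0.0465) without cortex WT replicate 3, and 2.46 (SE 0.64, adjusted p = 0.0892) with the pair averaged, so that call depended on counting the like libraries separately. Nnat had 15261, 7631 and 9359 in hippocampus WT and 2675, 2076 and 0 in cortex WT, a difference of 2.12 (SE 0.39, adjusted p = 0.000955) without cortex WT replicate 3 and 2.27 (SE 0.45, adjusted p = 0.000666) with the pair averaged. Over all 6 WT libraries none of the 3 passed, with 1.15 (SE 0.59, adjusted p = 0.908) for Sparc, 4.50 (SE 1.51, adjusted p = 0.908) for Gfap and 4.75 (SE 1.12, adjusted p = 0.224) for Nnat.

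Rn45s had 1191420, 1158980 and 1172580 normalized reads in hippocampus WT and 663167, 774690 and 1339000 in cortex WT, where replicate 3 was the highest of the 6 libraries. Its difference was 0.41 (SE 0.21, adjusted p = 0.908) over all 6, 0.71 (SE 0.06, adjusted p = 1.95e-18) without cortex WT replicate 3 and 0.72 (SE 0.06, adjusted p = 1.64e-29) with the pair averaged. Of the other genes named here, Igf2 at 7.13 (SE 1.40, adjusted p = 0.00355) and Slc35a4 at 4.38 (SE 1.06, adjusted p = 0.0488) passed without cortex WT replicate 3. With the pair averaged as well, Slc35a4 did not pass (4.35, SE 1.36, adjusted p = 0.362) and Igf2 was not tested. Enpp2 passed only with the pair averaged, at 3.44 (SE 0.39, adjusted p = 3.62e-15), against 2.94 (SE 1.17, adjusted p = 0.684) without averaging. Leaving out hippocampus WT replicate 1, 2 or 3 instead called Ttr alone. The very small p-values of Rn45s and Enpp2 rest on few libraries and mostly on spread pooled over genes, so they do not measure each gene's own spread.

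Tns1, Ptprt and Chrdl1 did not pass in WT under any of these fits. Tns1 had 3730, 95.9 and 756 normalized reads in hippocampus WT and 71.9, 166 and 0 in cortex WT, a difference of 2.48 (SE 1.22, adjusted p = 0.652) without cortex WT replicate 3. Ptprt had 5676, 3043 and 3219.5 in hippocampus WT and 1731, 1682 and 0 in cortex WT, a difference of 1.16 (SE 0.51, adjusted p = 0.605). Chrdl1 had 759, 1671 and 4116 in hippocampus WT and 6543, 3965 and 6687 in cortex WT, a difference of -1.55 (SE 0.55, adjusted p = 0.472), with hippocampus WT replicate 3 above cortex WT replicate 2. All 3 had the sign seen in KO. Over the 20 genes with the smallest p in KO, 7 of the 10 higher genes were also above 0 in WT and 4 of the 10 lower genes below 0, where 68.2% of all WT genes were above 0 and 31.8% below. Without cortex WT replicate 3 the counts were 7 of 10 and 7 of 10, against 47.3% above and 52.7% below.

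**Figure D5:**
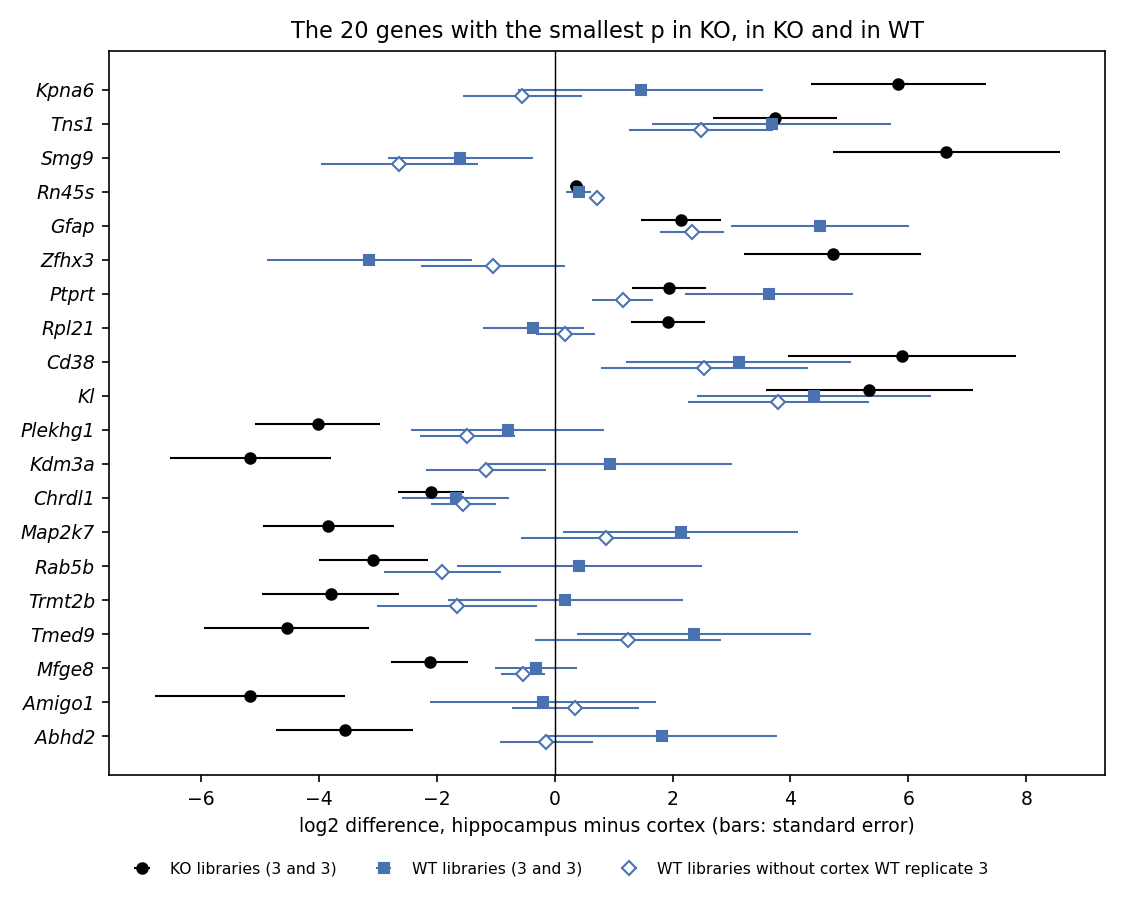
Log2 difference of hippocampus minus cortex for the 20 genes with the smallest p in KO, in the KO libraries (black circles), the WT libraries (filled squares) and the WT libraries without cortex WT replicate 3 (open diamonds), with standard errors as bars. Gfap, Tns1, Ptprt and Chrdl1 are among those on the same side of 0 in all 3 fits. Smg9, Zfhx3, Map2k7 and Tmed9 lie on one side in KO and on the other in both WT fits.

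Whether the regional difference itself changed with genotype was tested as an interaction, the hippocampus minus cortex difference in KO less that in WT, over 12 libraries. Of 10853 genes 0 were called higher and 0 lower (0% in each direction), 425 had an unadjusted p under 0.05 (3.92%), and the smallest adjusted p was 0.972. edgeR and limma-voom on recovered reads also called 0, with 839 and 586 genes at an unadjusted p under 0.05, and DESeq2 called 224 higher (2.06%) and 190 lower (1.75%). The interaction was -2.36 (SE 1.71, adjusted p = 0.972) for Gfap, 0.12 (SE 0.80, adjusted p = 0.993) for Sparc, -0.42 (SE 1.16, adjusted p = 0.98) for Chrdl1 and -1.37 (SE 1.24, adjusted p = 0.972) for Ptch1 on the log2 scale, so a difference between genotypes in the regional contrast of these genes was not detectable. The median interaction over all genes was -0.49 with the deposited size factors, 0.12 with upper-quartile factors and 0.19 without cortex WT replicate 3, so single values are to be read relative to a shift of that size.

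The 6 genes with the smallest p of the interaction were Uimc1, Slc35a4, Zfhx3, Gys1, Stk39 and Smg9. Uimc1, of a DNA repair complex that binds ubiquitin, had 435, 302 and 222 normalized reads in hippocampus KO and 0, 60.3 and 7.54 in cortex KO, against 55.6, 2.37 and 2 in hippocampus WT and 109, 225 and 17643 in cortex WT. Cortex WT replicate 3 was far above every other library, and the interaction was 8.99 (SE 2.62, adjusted p = 0.972). Gys1, the glycogen synthase of muscle and brain, had 78.4, 9.19 and 1093 in hippocampus KO and 0, 0.773 and 10.9 in cortex KO, against 0, 58.8 and 24.7 in hippocampus WT and 367, 1348 and 3514 in cortex WT. The interaction was 8.64 (SE 2.61, adjusted p = 0.972) for Gys1, -8.08 (SE 2.40, adjusted p = 0.972) for Slc35a4 and 7.87 (SE 2.35, adjusted p = 0.972) for Zfhx3. Slc35a4 had 1062, 3360 and 1082 in hippocampus WT and 19.2, 188 and 0 in cortex WT. Zfhx3 had 72.5, 385 and 383 in hippocampus WT and 860, 257 and 38358 in cortex WT. Its WT difference was -3.15 over all 6 libraries and -1.04 (SE 1.22) without cortex WT replicate 3. Stk39, a kinase that regulates chloride cotransporters, had 853, 2013 and 409 in hippocampus KO and 17.7, 203 and 56.1 in cortex KO, against 792, 0.789 and 0 in hippocampus WT and 798, 859 and 1392 in cortex WT, an interaction of 8.11 (SE 2.47, adjusted p = 0.972). Hippocampus WT replicates 2 and 3, the like pair, were near 0 for Stk39, and with limma array weights it was the 1 gene called. Smg9, one of the separated genes above, had an interaction of 8.24 (SE 2.52, adjusted p = 0.972), with 0, 2.37 and 11.3 in hippocampus WT and 53.9, 105 and 0 in cortex WT. In simulated data with the dispersion trend of these libraries the interaction test called 0% of genes changed 2-, 4- or 8-fold (10505 genes).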

How the data were processed

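Each library was built from total RNA of sorted cells with a Revelo high-sensitivity kit, per the labels' protocols, which mention no molecular identifiers. Named in the submitters' processing notes are STAR 2.5.0a, FastQC 0.10.1, MultiQC 0.9, DESeq2 1.20.0, R 3.5.2 and mm10. What counted the reads, on which annotation and whether by strand is not given in the sources used here. The deposited values, a signal for every gene in every library, are read counts over a library-wide size factor: in all 6 libraries 100% of the values were whole reads within 0.001 once multiplied back. Of 24421 entries, 27 named as dates were left out (at most 0.255% of a library's reads).

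The main test was limma-trend (limma 3.58.1 in R 4.3.3, robust) on log2(value + 10), with Benjamini-Hochberg adjustment over all genes with a value of 10 or more in at least 3 of the libraries compared. Differences on that scale understate the change of low genes. Calls had an adjusted p under 0.05. CPM were computed from the recovered reads. Count tests on recovered reads (edgeR 4.0.16, DESeq2 1.42.0, limma-voom), other pseudocounts, filters, scale factors, array weights, a replicate block and leaving out libraries were alternatives. The tests between regions and for the interaction were tested on simulated counts with 200 genes changed. Intervals and floors cover counting error or library spread only.

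The members, gene lists and tests were chosen with earlier results of these data known. Named genes were the NFI family, the 10 smallest p and the 10 largest fully separated differences in each direction, the members of each list with the largest moderated t (the first 2 in each direction), and the 6 smallest p of the interaction. Mbp, Ttr, Slc1a2, Aqp4, Gabbr1 and Slc6a11 fell outside this rule and were added after their values were seen. A few genes that the rule names are not reported here. Lists carry no test of their own. The without-replicate-2 repeat and the WT fits with libraries left out or averaged were chosen after seeing the data. Promoters are those of RefSeq and gene places those of GENCODE, on GRCm38.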

Additional observations from a re-analysis of the deposited data

How the results depend on the processing

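Between the knockout regions the count of called genes was 0 under both other pseudocounts, both other filters, TMM and upper-quartile factors, edgeR, limma-voom, array weights and a spread taken from 12 or 24 libraries. DESeq2 on recovered reads called 63. Leaving out 1 library gave 0 to 1 calls (Igf2 without hippocampus KO replicate 1, Mbp without hippocampus KO replicate 2), and leaving out replicate 2 of both regions gave 1, Mbp. For the interaction, DESeq2 called 414 and array weights 1, and the other alternatives 0. Between the WT regions leaving out 1 library gave 1 to 14 calls, and 9 were called without cortex WT replicate 3 and with the like pair averaged. The cause of these shifts was not tested.

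Whether equal replicate numbers pair the libraries is not given in the sources used here and was not settled. Same-numbered hippocampus and cortex libraries deviated together only weakly, with correlations of 0.0754, 0.0991 and 0.0166. Even so, each library correlated best with its own number (other pairs -0.0832 to 0.0034). The main fit used no pairing. With the replicate block 4 genes were called, Enpp2, Rn45s and Ttr higher and Mbp lower.

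Of 106 genes named, 98 kept their direction under every alternative in which they were tested. Most of the 106 were chosen for their differences in these same libraries, so a kept direction adds no support. Nfib, near 0, was -0.011 with upper-quartile factors and -0.022 with limma-voom. P2rx4 was 0.41 with edgeR and 0.41 with DESeq2. Slc1a2 and Aqp4 became 0.069 and 0.028 without replicate 2 of both regions, and Aqp4 0.029 with array weights. Leaving out 1 library gave -0.24 to 0.28 for Nfib, -2.26 to 0.10 for P2ry12, -0.70 to 0.046 for Kcnj10, -0.42 to 4.14 for Igf2, -0.23 to 0.21 for Slc1a2, -0.017 to 0.69 for Gja1 and -0.19 to 0.25 for Aqp4. For summed markers (hippocampus KO minus cortex KO, CPM) it gave -12142.5 to 7019 for astrocytes, -62.7 to 28.7 for oligodendrocyte precursors, -178 to 49.95 for neurons, -711 to 388 for microglia, -310.4 to 95.6 for endothelium, -131 to 1.99 for mural cells and -22.2 to 51.1 for blood.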
